A study of Solanum lycopersicum with 12 samples.

Results

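Transcript levels of 6 tomato genes of brassinosteroid synthesis and signalling were followed through lateral root development. The genes were chosen by locus tag, by a rule that names tags and no measured values, as BRI1 (Solyc04g051510), DWARF (Solyc02g089160), CPD (Solyc06g051750), DET2 (Solyc10g086500), BZR1 (Solyc04g079980) and a BZR-like gene (Solyc12g089040). They are 6 of the 34027 genes in the deposited table, and all 6 were among the 18357 genes that passed the filter on low counts. Their choice was made with earlier results of these data known. The table holds tags only, so each name is the one under which its tag was listed. The RefSeq gene table used here carries no Solyc tags. Its symbols CURL3 (with the synonym BRI1), CYP85A1 (with the synonym Dwarf), det2 and BZR1 lie on chromosomes 4, 2, 10 and 4, the same chromosomes as in the tags of BRI1, DWARF, DET2 and BZR1.

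Brassinosteroids are plant steroid hormones that promote cell expansion and division. They bind the receptor kinase BRI1 at the cell surface, and the signal that follows inactivates a kinase that otherwise keeps transcription factors of the BZR family out of the nucleus. DET2, CPD and DWARF are enzymes of brassinosteroid synthesis, and in Arabidopsis active BZR1 represses synthesis genes, which closes a feedback loop. In roots, brassinosteroids act on the size of the meristem and on cell elongation.

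RNA came from sections of the primary root of M82 tomato seedlings with the reporter DR5::VENUSx3-NLS, in which an auxin-responsive promoter drives a nuclear fluorescent protein. All 6 groups carried this reporter and none received a treatment, and each group had 2 libraries. The control was a piece of the differentiation zone without a lateral root. Sections at stage 1 held a pair of cells with DR5 signal, and by stage 2 the first periclinal division had taken place. The primordium had passed the endodermis at stage 3, was in the middle of the cortex by stage 4, and touched the epidermis but had not emerged at stage 5. The labels give neither the age of the seedlings nor how many plants went into a library, nor whether the duplicates came from separate plants. The p-values therefore measure only the spread between these libraries, which edgeR estimated for each gene with information shared across genes. Each section also held the primary root tissue around the primordium, so a larger number of cells that express a gene cannot be told apart from more RNA per cell.

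Library totals ran from 1948144 counts (stage 5 replicate 2) to 6196272 (stage 1 replicate 1). Levels are given as CPM, the count scaled to a common library total with TMM factors, and the floor of 3 counts corresponded to between 0.501 and 1.59 CPM. The libraries were made with a 3′ kit. Levels are compared between groups for 1 gene and not between genes. A pair of adjacent tags linked to root initiation, Solyc09g066260 and Solyc09g066270, had 0 to 2 counts in the control libraries and 19 to 84 counts in the stage 1 to 4 libraries. At stage 5 they had 16 and 12 counts in replicate 1 and 2 and 0 in replicate 2. Markers of dividing, suberized, xylem and green cells were planned by gene name, were not matched to tags and are not used here, so the share of each cell type in the sections was not tested. Over all tested genes the median log2 change from control was 0.143 in stage 1 and 0.105 at stage 2, with 0.0244, −0.00504 and 0.0215 at stages 3, 4 and 5.

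BRI1, DWARF and DET2 rose over the series, while CPD, BZR1 and BZR-like did not pass the test of a difference among the 6 groups (edgeR's quasi-likelihood F test, adjusted p under 0.05). These 3 of 6 genes stand beside 44.4% of all tested genes that passed the same test, so the share called was close to that of the transcriptome. Against the control, DWARF was called from stage 1 on, BRI1 from stage 3 and DET2 from stage 4. For both DWARF and BRI1, every library of stages 1 to 5 lay above both control libraries. How many of all tested genes separated in this way was not counted, here or for the separations of single genes given below.

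**Figure D1:**
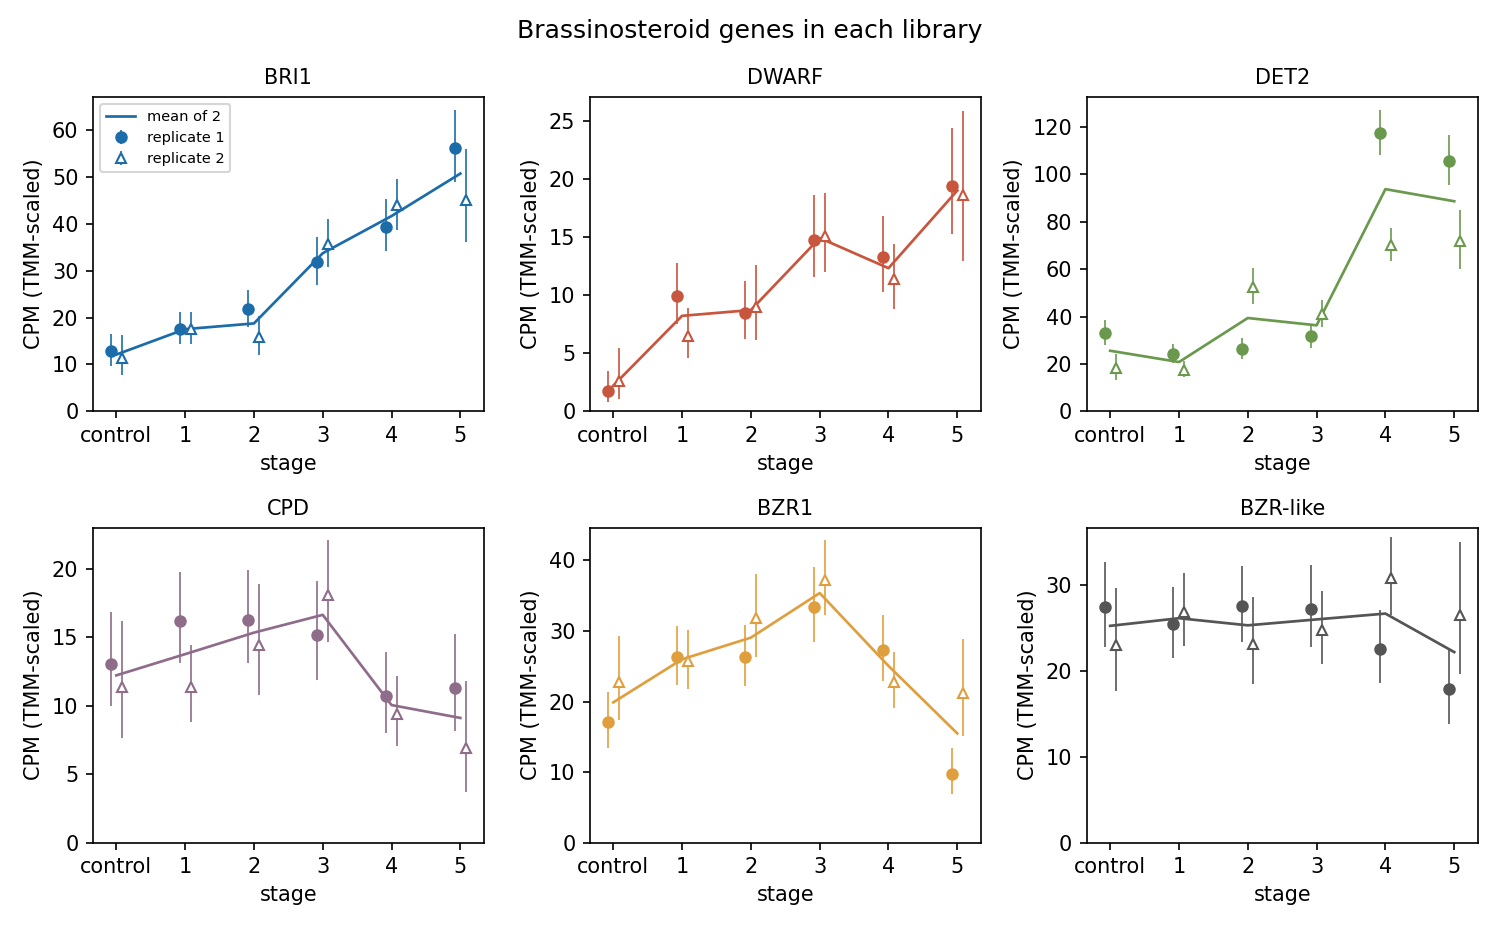
Level of each gene in every library, in TMM-scaled CPM (vertical axis, from 0) by stage (horizontal axis); filled circles are replicate 1, open triangles replicate 2, lines join the means of 2, and bars are 95% Poisson intervals of the count in that library. BRI1 goes from a mean of 12.1 CPM in the control to 50.7 in stage 5, DWARF from 2.21 to 19.0, DET2 is highest at stages 4 and 5, and BZR-like stays between 17.9 and 30.8 CPM.

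BRI1, the brassinosteroid receptor kinase, had 12.8 and 11.4 CPM in the control libraries (replicates 1 and 2), 17.5 and 17.5 at stage 1, and 21.7 and 15.8 in stage 2. It then had 31.8 and 35.6 CPM at stage 3, 39.4 and 43.9 in stage 4, and 56.2 and 45.2 at stage 5. Every library of stages 3 to 5 lay above every library of the control and of stages 1 and 2. In the order of means, from stage 5 down to the control, neighbouring groups overlapped for stages 2 and 1 alone. The interval of the replicate ratio (exact 95%, counting error only) included 1 in all 6 pairs of duplicates.

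Against the control, the log2 change of BRI1 was 1.47 ± 0.23 (SE) in stage 3, 1.77 ± 0.23 at stage 4 and 2.07 ± 0.24 in stage 5. The last is a 4.19-fold rise with an adjusted p of 3.45e-05 in edgeR's test. All 3 were called in each fit that left out 1 of the 12 libraries, and the stage 5 change then ran from 1.88 to 2.19. At stages 1 and 2 the log2 changes were 0.53 and 0.63, with adjusted p of 0.169 and 0.156 (edgeR). The step from stage 2 to stage 3, with a log2 change of 0.84 ± 0.22, missed the threshold (adjusted p = 0.0573, edgeR). It was called in 4 of the 12 fits that left out 1 library, those without a control or a stage 5 library. The step was also called without a filter (adjusted p = 0.0461), with 10 counts in every library (0.0402) and with only the 4 libraries compared (0.0375, all edgeR). DESeq2 did not call it, so the call depended on the setting. Over the 12 fits the change ran from 0.65 (without stage 2 replicate 2) to 1.10 (without stage 2 replicate 1) and the adjusted p from 0.0416 to 0.309. The slope over stage number, a rank from 0 to 5, was 0.43 ± 0.04 log2 units per stage (adjusted p = 3.70e-06, edgeR), higher than the slopes of 91.6% of tested genes.

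DET2 is the steroid reductase of an early step in brassinosteroid synthesis. Its libraries had 33.0 and 18.2 CPM in the control, 24.1 and 17.5 at stage 1, 26.3 and 52.5 in stage 2 and 31.6 and 41.0 at stage 3. They had 117 and 70.2 CPM in stage 4 and 106 and 71.7 at stage 5. All 4 libraries of stages 4 and 5 lay above the other 8 libraries, and the duplicates differed by more than counting error in all 6 pairs. In the order of means, stages 4 and 5 overlapped with each other, as did each neighbouring pair among stage 2, stage 3, control and stage 1.

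The log2 change of DET2 from control was 1.85 ± 0.39 (SE) in stage 4 (adjusted p = 0.00364, edgeR) and 1.78 ± 0.39 at stage 5 (adjusted p = 0.00322, edgeR), a 3.60-fold and a 3.43-fold rise. With 1 library left out the stage 5 change ran from 1.42 (without control replicate 2) to 2.27 (without control replicate 1) and was called each time. At stages 1, 2 and 3 the log2 changes were −0.32, 0.58 and 0.48, and none passed the test (adjusted p of 0.643, 0.438 and 0.446, edgeR). The step from stage 3 to stage 4 had a log2 change of 1.37 ± 0.38 and an adjusted p of 0.247 (edgeR), although 97.9% of tested genes had a lower change at that step; DESeq2 called it (adjusted p = 0.0457). Counts of DET2 were fractional in 5 of 12 libraries, by at most 0.189 from a whole number; why was not tested. The other 5 genes had whole counts in all libraries.

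CPD, a cytochrome P450 of the middle of the synthesis pathway, had 13.1 and 11.4 CPM in the control, 16.2 and 11.4 in stage 1, 16.2 and 14.4 at stage 2 and 15.2 and 18.1 in stage 3. It had 10.7 and 9.38 CPM at stage 4 and 11.3 and 6.91 in stage 5. The mean was highest at stage 3 and lowest in stage 5, and neighbouring groups in the order of means overlapped, except the control and stage 4. CPD passed no test: the adjusted p was 0.142 among the 6 groups and 0.278 for the slope (edgeR). Its log2 change from control at stage 5 was −0.38, with a 95% interval from −1.05 to 0.30, which includes 0. The fall from stage 3 to stage 4 was −0.73 ± 0.28 on the log2 scale (adjusted p = 0.407, edgeR). The lowest library, stage 5 replicate 2, rests on 13 counts.

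DWARF is the cytochrome P450 that carries out a late step of synthesis, the formation of castasterone. It had 8 and 7 counts in the control libraries, or 1.77 CPM (95% Poisson interval 0.764 to 3.49) and 2.65 CPM (1.07 to 5.46). The libraries had 9.93 and 6.51 CPM in stage 1, 8.47 and 8.97 at stage 2, 14.8 and 15.1 in stage 3, 13.3 and 11.4 at stage 4, and 19.4 and 18.6 in stage 5. The control was separate from every stage, and in the order of means only stages 2 and 1 overlapped as neighbours. The mean at stage 4, 12.3 ± 1.3 CPM (SD, n = 2), lay below that in stage 3, 14.9 ± 0.24, but this step was not called (log2 change −0.28 ± 0.27, adjusted p = 0.775, edgeR).

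Against the control, DWARF had the largest log2 change of the 6 genes at every stage. Differences between genes were not tested. From stage 1 to stage 5, DWARF changed less (1.21) than BRI1 (1.54) and DET2 (2.10). Its log2 change from control was 1.94 ± 0.36 (SE) at stage 1, 2.02 ± 0.36 in stage 2, 2.80 ± 0.34 at stage 3, 2.52 ± 0.35 in stage 4 and 3.15 ± 0.35 at stage 5, with adjusted p of 0.00446, 0.00712, 0.000149, 0.000206 and 2.81e-05 (edgeR). The stage 5 value is an 8.87-fold rise, above the change of 95.9% of tested genes, and it ran from 2.81 to 3.39 with 1 library left out. The rises at stages 1 and 2 were called in each of the 12 fits that left out 1 library (largest adjusted p of 0.0433 without stage 1 replicate 1 and 0.0454 without stage 2 replicate 2, edgeR). They missed the threshold when only the 4 libraries compared were fitted (log2 changes of 1.80 and 1.93, adjusted p of 0.0671 and 0.0829, edgeR). Over the 12 fits the stage 1 change ran from 1.60 (without control replicate 1) to 2.22 (without stage 1 replicate 2).

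**Figure D2:**
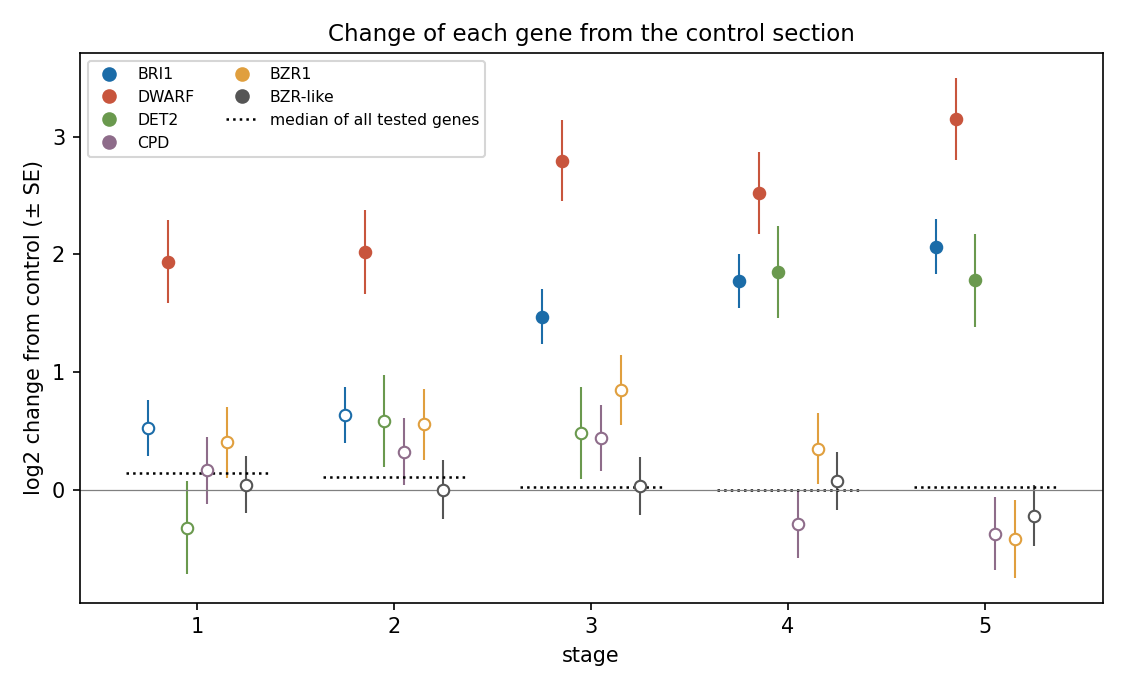
Log2 change of each gene from the control section (vertical axis) at stages 1 to 5 (horizontal axis), with bars of 1 SE. Each SE is the size of the log2 change divided by the square root of F from edgeR's test. Filled points have an adjusted p under 0.05, and dotted lines mark the median of all tested genes. DWARF lies highest at every stage, from 1.94 to 3.15, and BRI1 and DET2 join it among the filled points from stages 3 and 4 on.

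Counted over the 6 genes, the comparisons with the control gave 1 called gene at stage 1 (DWARF), 1 in stage 2 (DWARF), 2 at stage 3 (BRI1 and DWARF) and 3 at each of stages 4 and 5 (BRI1, DWARF and DET2), all of them higher. Of all tested genes, 13.2% were called in stage 1, 5.99% at stage 2, 16.3% in stage 3, 32.9% at stage 4 and 46.2% in stage 5, and those called higher made up 9.94%, 5.25%, 13%, 19.4% and 24.4%. The median log2 change of the 6 genes was 0.282, 0.57, 0.663, 1.06 and 0.778 at stages 1 to 5. All 5 comparisons use the same control libraries, so their errors are shared. Whether any of these shares differs from that of all genes was not tested.

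Between consecutive stages none of the 6 genes was called by edgeR's test, against 0.278% of all genes from stage 1 to 2, 3.74% from 2 to 3, 0.0872% from 3 to 4 and 0% from 4 to 5. At that last step 3230 of all genes had an unadjusted p under 0.05 and DESeq2 called 555. At an unadjusted p under 0.05 (edgeR) there were 1, 2, 2 and 2 of the 6, from the first step to the last. Of all tested genes, 1233, 3422, 1819 and 3230 were under it at the same steps. Whether the share of the 6 differs from that of all genes was not tested. DESeq2 called 1 of the 6, DET2 at the step from stage 3 to 4, beside 168 of all genes, and 0 at the other steps. For the slope over stage number, 3 of the 6 were called, all rising, against 49.3% of all genes called and 25.4% called rising. The slopes were 0.43 ± 0.04 for BRI1, 0.45 ± 0.09 for DWARF and 0.44 ± 0.08 for DET2 (log2 units per stage ± SE), and differences between them were not tested.

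BZR1 encodes a transcription factor that carries the signal to brassinosteroid-responsive genes. Its libraries had 17.04 and 22.7 CPM in the control, 26.3 and 25.7 at stage 1, 26.3 and 31.8 in stage 2 and 33.5 and 37.3 at stage 3. They had 27.3 and 22.8 CPM in stage 4 and 9.72 and 21.2 at stage 5. Both stage 3 libraries lay above all other libraries, and both stage 5 libraries lay below every library of stages 1 to 4. The stage 5 duplicates differed by 2.19-fold (95% interval 1.36 to 3.52, counting error only), and the lower of them, replicate 1, was the lowest of all 12 libraries.

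Among the 6 groups BZR1 missed the threshold (adjusted p = 0.053, edgeR). It was called without a filter on low counts (adjusted p = 0.00198), with 10 counts required in every library (0.0345), and in 1 of the 12 fits that left out 1 library, without stage 5 replicate 2 (0.00547), so its call depended on the setting. Against the control the log2 change was 0.85 ± 0.30 (SE) in stage 3 (adjusted p = 0.0757, edgeR) and −0.42 ± 0.33 at stage 5 (adjusted p = 0.317, edgeR). The stage 3 change was called in 2 of the 12 fits that left out 1 library, those without a stage 5 library, and its adjusted p ran from 0.0204 to 0.28 over the 12. The stage 5 change rested on which duplicate was kept: it was −1.02 and called (adjusted p = 0.0194, edgeR) without stage 5 replicate 2, and 0.11 (adjusted p = 0.812) without stage 5 replicate 1.

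BZR-like, a second gene of the same family, had 27.4 and 23.1 CPM in the control, 25.4 and 26.9 in stage 1, 27.5 and 23.1 at stage 2 and 27.2 and 24.8 in stage 3. It had 22.6 and 30.8 CPM at stage 4 and 17.9 and 26.6 in stage 5. All groups overlapped with their neighbours in the order of means. The adjusted p among the 6 groups was 0.904 (edgeR), and 2.08% of tested genes had a lower F. At stage 5 its log2 change from control was −0.22 with a 95% interval from −0.79 to 0.34. The changes of BRI1, DWARF and DET2 at that stage lie above this interval. All of these changes use the same 2 control libraries, and differences between genes were not tested.

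Comparisons of stage 5 with stages 1 and 3 were added after the values had been seen. Their log2 changes are not taken from the control level. The filter, the scaling and the estimate of spread still came from all 12 libraries, the controls included. From stage 1 to stage 5, BRI1 (log2 change 1.54 ± 0.22), DWARF (1.21 ± 0.28) and DET2 (2.10 ± 0.39) were higher, with adjusted p of 0.000226, 0.00432 and 0.00119 (edgeR). Of all genes 44.4% were called in this comparison and 21.2% were called higher. The DWARF call was lost without stage 1 replicate 2 (log2 change 0.92, adjusted p = 0.0507). BZR1 was lower by −0.82 ± 0.32, just short of the threshold (adjusted p = 0.0526, edgeR).

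From stage 3 to stage 5, DET2 rose (log2 change 1.3 ± 0.38, adjusted p = 0.0373, edgeR) and BZR1 fell (−1.27 ± 0.32, adjusted p = 0.0201, edgeR), beside 17% of all genes called, 6.98% higher and 10% lower. Stage 3 was picked because BZR1 peaked there, so the BZR1 value describes that peak. Its call was lost without stage 3 replicate 1, stage 3 replicate 2 or stage 5 replicate 1, and the change ran from −1.87 to −0.74 with 1 library left out. The DET2 call was lost without those 3 libraries and without either stage 1 library, with a change from 0.98 to 1.53. BRI1 (0.60 ± 0.22, adjusted p = 0.0766), CPD (−0.81 ± 0.30, adjusted p = 0.0805) and DWARF (0.35 ± 0.27, adjusted p = 0.392) were not called (edgeR).

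**Figure D3:**
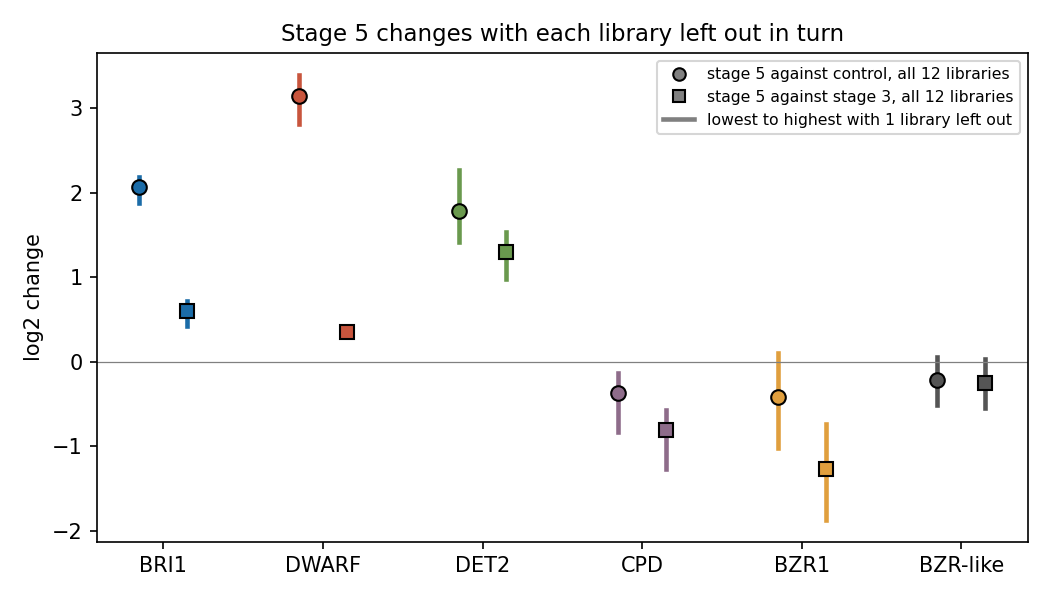
Log2 change (vertical axis) of each gene at stage 5 against the control (circles) and against stage 3 (squares), with lines from the lowest to the highest value when 1 of the 12 libraries is left out. The lines of BRI1, DWARF and DET2 stay above 0 in both comparisons, and the line of BZR1 against control spans 0, from −1.02 to 0.11.

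To ask whether both BZR genes followed the same course, their ratio was taken within each library, where the scaling between libraries drops out but for the pseudocount of 0.5 CPM. The mean log2 ratio of BZR1 to BZR-like was −0.35 in the control, −0.01 in stage 1, 0.19 at stage 2, 0.44 in stage 3, −0.08 at stage 4 and −0.58 in stage 5. The stage 5 libraries, at −0.85 and −0.32, lay below the stage 3 libraries, at 0.29 and 0.58, while the control libraries, at −0.67 and −0.02, spanned much of the range between. No linear or rank trend of the ratio with stage number was detected over the 12 libraries. A test of trend does not detect a rise followed by a fall, the order of these means. It therefore cannot decide whether the 2 genes followed the same course. Pearson's r was −0.132 (p = 0.674) and Spearman's rho −0.141 (p = 0.67), by two-sided permutation tests with 100000 resamples, and both had an adjusted p of 0.674. The control and stage 5 libraries are equally far from the median stage. Without the 2 control libraries r was −0.485 (permutation p = 0.157), and without the 2 stage 5 libraries it was 0.381 (permutation p = 0.278).

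**Figure D4:**
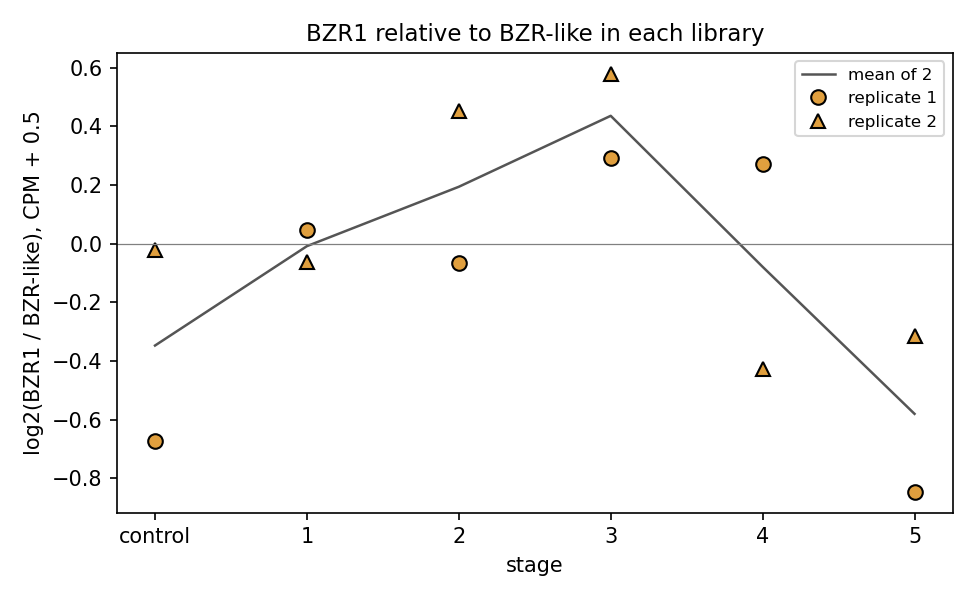
Log2 ratio of BZR1 to BZR-like in each library (vertical axis, CPM + 0.5) by stage (horizontal axis); circles are replicate 1, triangles replicate 2, and the line joins the means of 2. The mean is highest at stage 3 (0.44) and lowest in stage 5 (−0.58), and the duplicates of the control, stage 2, stage 4 and stage 5 lie apart.

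For BRI1, DWARF, CPD and DET2, the tag with the most similar course was sought among 14803 other genes with a mean of at least 20 counts, by Pearson's r of log2 CPM over the 12 libraries, as a description only. For BRI1 it was Solyc07g065170 (r = 0.987), with a mean of 87.8 CPM in the control and 581 at stage 5. For DWARF it was Solyc12g008910 (r = 0.989), from 11.7 to 32.6 CPM, and for DET2 Solyc11g066670 (r = 0.985), from 19.5 to 107 CPM. CPD had a less similar partner, Solyc05g009420 (r = 0.909), from 78.2 to 41.6 CPM. These tags have no name in the tables used here.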

How the data were processed

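The 12 libraries came from a QuantSeq kit that reads the 3′ end of transcripts, according to the protocols in the labels. The authors deposited estimated counts per gene, of which 5.64% were not whole. Salmon 1.3.0 and DESeq2 are named in the submitters' processing notes, with no role given. The genome build, annotation, strand use and filters are not given in the sources used here. Each column name equalled 1 sample's description, and groups and replicate numbers came from the sample titles.

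The estimated counts were rounded and filtered with filterByExpr by group (18357 genes). After TMM scaling, edgeR 4.0.16 (in R 4.3.3, with limma 3.58.1) fitted its quasi-likelihood model of group to all 12 libraries, with 6 residual degrees of freedom. Its estimate of the spread of each gene also shared information across genes. The slope had its own model. p-values were adjusted by Benjamini-Hochberg over all tested genes, and genes under 0.05 were called. An SE is the log2 change divided by the square root of F. The BZR ratio was tested with scipy 1.17.1. Alternatives were DESeq2 1.42.0 and its size factors, no filter, 10 counts in every library, the replicate number as a block, smaller sets of libraries, and each library left out. Duplicates differed by more than sampling noise (chi-square per degree of freedom from 5.23 to 10), so all were kept as separate libraries. Poisson and exact intervals cover counting error only, since no molecular identifiers are mentioned.

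The named genes are the 6 members and, as the files do not pair tags with names, the most similar tag for the first 4 of them in list order. A list of other pathway genes by name was planned and is not used here for the same reason. The members and lists were chosen with earlier results of these data known.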

Additional observations from a re-analysis of the deposited data

Results flagged for a closer look

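Direct comparisons of stage 5 with an earlier stage, in edgeR's model, were added after the data were seen. Against stage 1, the log2 change in stage 5 was 1.54 for BRI1 (the receptor), 1.21 for DWARF and 2.10 for DET2 (both synthesis enzymes); these 3 of 6 calls stand beside 44.4% of all tested genes. Against stage 3, it was 1.3 for DET2 and −1.27 for BZR1 (the transcription factor), 2 of 6 calls beside 17% of all tested genes. Stage 3 was picked for the BZR1 peak, so the BZR1 value describes that peak and is no test of it. With each of the 12 libraries left out in turn, the calls against stage 3 were made in 7 fits for DET2 and 9 for BZR1. No group had enough libraries for a test of outlying libraries.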

How the results depend on the processing

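Of 1385 values of single genes under an alternative, 1350 stayed on the same side of the threshold, 12 lost a call and 23 gained one, and no called change reversed. A gene removed by a filter gave no value. The DWARF calls lost with 10 counts required in every library are therefore not in this tally. An uncalled change took the other sign in 47 cases, 32 of them for BZR-like. The number of the 6 genes called fell from 1 to 0 at stages 1 and 2 and from 2 to 1 at stage 3 against control with 10 counts required in every library, because that filter removes DWARF. It also fell from 3 to 2 at stages 4 and 5 and for the slope, and stayed at 3 among the 6 groups and between stages 5 and 1, with BZR1 in place of DWARF. The count fell from 1 to 0 at stages 1 and 2 with only the 4 libraries compared. It rose from 0 to 1 without a filter for the steps from stage 1 to 2 (DET2), 2 to 3 (BRI1) and 3 to 4 (DET2), with DESeq2 for the step from 3 to 4, and with 10 counts in every library or only the 4 libraries compared for the step from 2 to 3 (BRI1); the cause was not tested. Without a filter BZR1 was gained among the 6 groups (3 to 4), at stage 3 against control (2 to 3) and between stages 5 and 1 (3 to 4). With 1 library left out, the count ran from 0 to 1 for stage 3 against stage 2 and from 0 to 2 for stage 5 against stage 3, where only the 4 libraries compared gave 1. BZR1 was also gained without stage 5 replicate 2 among the 6 groups and at stage 5 against control (3 to 4 each), and without either stage 5 library at stage 3 against control (2 to 3). Between stages 5 and 1 the count ran from 2 to 4. The r of the BZR ratio with stage number was 0.381 without the stage 5 libraries and ran from −0.402 to 0.157 with 1 library left out. In the fit with a replicate block, 4 genes in place of 3 differed among the 6 groups and between stages 5 and 1, as BZR1 was gained (adjusted p of 0.0419 and 0.0409, edgeR), and the count was unchanged in the other 11 comparisons. Same-numbered deviations correlated by 0.0485 on average (from −0.0875 to 0.228), and for all 6 stages the best match was to the same number, a hint from the data and not the design. Depth limits DWARF in the control, with 7 and 8 counts, and CPD at stage 5.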
